A study of Mus musculus with 20 samples.

Results

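The genes described here are 10 protein folding and quality control genes of the mouse liver, taken by name from a table of 46078 genes, and all 10 had counts enough to be tested, as did 14759 genes in all. They are Hspa1a, Hspa1b, Hsph1, Hspa8, Hsp90aa1, Dnaja1 and Dnajb1, whose proteins work in the cytosol and nucleus, and Hspd1, Hspe1 and Lonp1, whose proteins work in the mitochondrial matrix. Polyadenylated liver RNA was sequenced from 20 male mice, at least 9 weeks old at the start of the diets, on day 2 of a diet with a defined amino acid mix. By the study's account of its RNA sequencing design, the mice were calorie restricted on every diet, and the restriction began on the control diet before the test diets. The animals differed at Cse (gene symbol Cth), which encodes cystathionine gamma-lyase, the enzyme that makes cysteine from cystathionine, on a mixed 129/C57BL/6 background. Cse+/- mice, which keep 1 working copy and serve as controls, were fed the control diet with all amino acids (2 mice), the diet without cysteine (no-Cys, 4 mice) or the diet without tryptophan (no-Trp, 3 mice). Cse-/- mice, which lack the enzyme, were fed no-Cys (4 mice), no-Trp (3 mice) or no-Trp with L-buthionine sulfoximine (BSO), an inhibitor of the first step of glutathione synthesis (4 mice). The sample labels name the control genotype WT, while the list of mice that accompanies the study names it heterozygous, and it is written Cse+/- here. No Cse-/- mouse on the control diet is among these libraries. The knockout is present in the whole body, so effects that start in the liver and those that start in other tissues cannot be told apart.

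Chaperones bind proteins that are unfolded, newly made or on their way across a membrane. In the cytosol, HSP70 proteins (Hspa8 the constitutive form, Hspa1a and Hspa1b the inducible ones) bind and release clients in cycles of ATP hydrolysis that J-domain proteins (Dnaja1, Dnajb1) start and nucleotide exchange factors such as the HSP110 protein Hsph1 end, and HSP90 proteins (Hsp90aa1 the inducible cytosolic form) take over clients such as kinases and steroid receptors. Heat and other protein damaging stresses raise many of these genes through heat shock factor 1, which binds heat shock elements in their promoters. In the mitochondrial matrix, the chaperonin Hspd1 (HSP60) and its lid Hspe1 (HSP10) fold imported proteins, and the ATP-dependent protease Lonp1 removes damaged ones.

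Of the 5 promoters shown, those of Hspa1a, Hspa1b, Hspe1 and Hsph1 hold heat shock elements, and the first 2 are nearly the same. Lonp1 is shown as a member that the results turn on without such a match. Sequences are from RefSeq (GRCm38.p6), from 250 bases before to 30 bases after the annotated start, 5' to 3' on the gene's strand. Capitals mark heat shock element units, GAANNTTC or TTCNNGAA, each its own reverse complement and so counted once over both strands. The units can overlap by 3 letters. The windows are chr17:34972127-34972406 (minus strand) for Hspa1a, chr17:34959209-34959488 (minus) for Hspa1b, chr1:55087898-55088177 (plus) for Hspe1, chr5:149636286-149636565 (minus) for Hsph1 and chr17:56626874-56627153 (minus) for Lonp1.
Hspa1a: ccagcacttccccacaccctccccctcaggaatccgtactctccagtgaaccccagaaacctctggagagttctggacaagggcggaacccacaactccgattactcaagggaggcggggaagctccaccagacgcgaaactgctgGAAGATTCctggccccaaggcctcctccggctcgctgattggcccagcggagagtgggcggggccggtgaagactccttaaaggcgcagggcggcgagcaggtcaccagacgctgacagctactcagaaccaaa
Hspa1b: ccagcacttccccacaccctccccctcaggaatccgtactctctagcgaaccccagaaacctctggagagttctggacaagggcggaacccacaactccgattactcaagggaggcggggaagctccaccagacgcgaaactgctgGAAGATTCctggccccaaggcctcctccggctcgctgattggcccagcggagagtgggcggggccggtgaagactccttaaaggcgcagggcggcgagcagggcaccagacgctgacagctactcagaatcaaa
Hspe1: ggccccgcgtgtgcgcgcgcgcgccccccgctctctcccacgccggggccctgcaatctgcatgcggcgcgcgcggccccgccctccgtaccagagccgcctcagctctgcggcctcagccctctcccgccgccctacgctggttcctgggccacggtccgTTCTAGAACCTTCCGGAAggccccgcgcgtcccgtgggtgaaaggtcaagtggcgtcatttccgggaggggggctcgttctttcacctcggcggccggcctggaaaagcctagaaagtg
Hsph1: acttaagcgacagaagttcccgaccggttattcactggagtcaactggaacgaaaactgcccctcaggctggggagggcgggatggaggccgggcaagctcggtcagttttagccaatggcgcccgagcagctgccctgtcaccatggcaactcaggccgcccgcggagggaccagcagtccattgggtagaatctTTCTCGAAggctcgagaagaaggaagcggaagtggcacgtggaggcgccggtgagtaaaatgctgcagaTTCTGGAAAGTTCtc
Lonp1: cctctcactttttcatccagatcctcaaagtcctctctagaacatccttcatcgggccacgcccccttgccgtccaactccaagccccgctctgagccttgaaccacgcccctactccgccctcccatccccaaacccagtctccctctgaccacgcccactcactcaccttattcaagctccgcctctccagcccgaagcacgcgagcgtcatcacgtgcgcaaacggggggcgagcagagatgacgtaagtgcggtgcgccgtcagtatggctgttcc

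Hspa1a and Hspa1b each held 1 unit, 104 to 97 bases before the start, and their 300-base windows differed at 4 bases. Hspe1 held 3 overlapping units in a single run of 18 bases, 89 to 72 bases before its start. Hspd1 lies head to head with Hspe1, with 112 annotated bases in common, and the same 18-base run lay 144 to 127 bases before 1 of the 2 Hspd1 starts in the table, while the window of the other Hspd1 start held none. Hsph1 also held 3 units, and its second run lies after the start, at bases 16 to 28 in the window shown. Of the 8 members with a promoter in the table, 6 held at least 1 unit (Dnaja1 is the sixth, with 1 unit at 1 of its 3 starts), and Lonp1 and Dnajb1 held none in these windows. Counted by window, 7 of the members' 13 windows held at least 1 unit and 4 held 3, with the run between Hspd1 and Hspe1 counted in both genes and the windows of Hsph1 overlapping. Among all 32851 promoter windows of 300 bases, 15.1% held at least 1 unit of either kind (7.86% GAANNTTC, 8.52% TTCNNGAA), and 0.256% held 3 or more. Hspa8 and Hsp90aa1 are named without a promoter. A match describes the letters only.

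The libraries held 11785740 to 57986121 counts on genes, with a median of 15252745. Cth was at 88.4 to 332 CPM (counts scaled to library size and composition) in the 9 Cse+/- libraries and at 6.37 to 14.4 CPM in the 11 Cse-/- libraries, so every library matched its genotype. The 7 hepatocyte markers in the table summed to 45076 CPM or more in every library, against 0.944 to 3.78 CPM for the 6 lymphocyte markers. The table of libraries carries no replicate numbers, so libraries are named by the mouse codes of the study (av01 to av22). Of the Cse-/- no-Cys libraries, av08 stood apart from av05, av06 and av07 in several genes below, with Atf5, a stress response transcription factor gene, at 671 CPM against 1456 to 1667 CPM and a hepatocyte marker sum of 77160 CPM against 45076 to 48845 CPM.

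Levels per kilobase were taken over all annotated exons of a gene, which can lower genes with many transcripts (Dnaja1, 10 transcripts over 8629 bases). They set different genes side by side only roughly. The mean level in the control livers was 152.5 CPM per kb for Hspd1, 127.3 for Hspe1 and 98.3 for Hspa8. Lonp1 followed at 35.6 CPM per kb, Dnaja1 at 22.0 and Hsp90aa1 at 21.7. Dnajb1 (6.66), Hsph1 (6.13), Hspa1b (0.981) and Hspa1a (0.151) were the lowest. The constitutive HSP70 and the mitochondrial chaperonin were thus the highest of these genes on this scale in liver on the restricted control diet. Hspa1a was close to the limit of counting, with 6 and 8 counts in the 2 control libraries, where Hspa1b had 32 and 55.

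**Figure D1:**
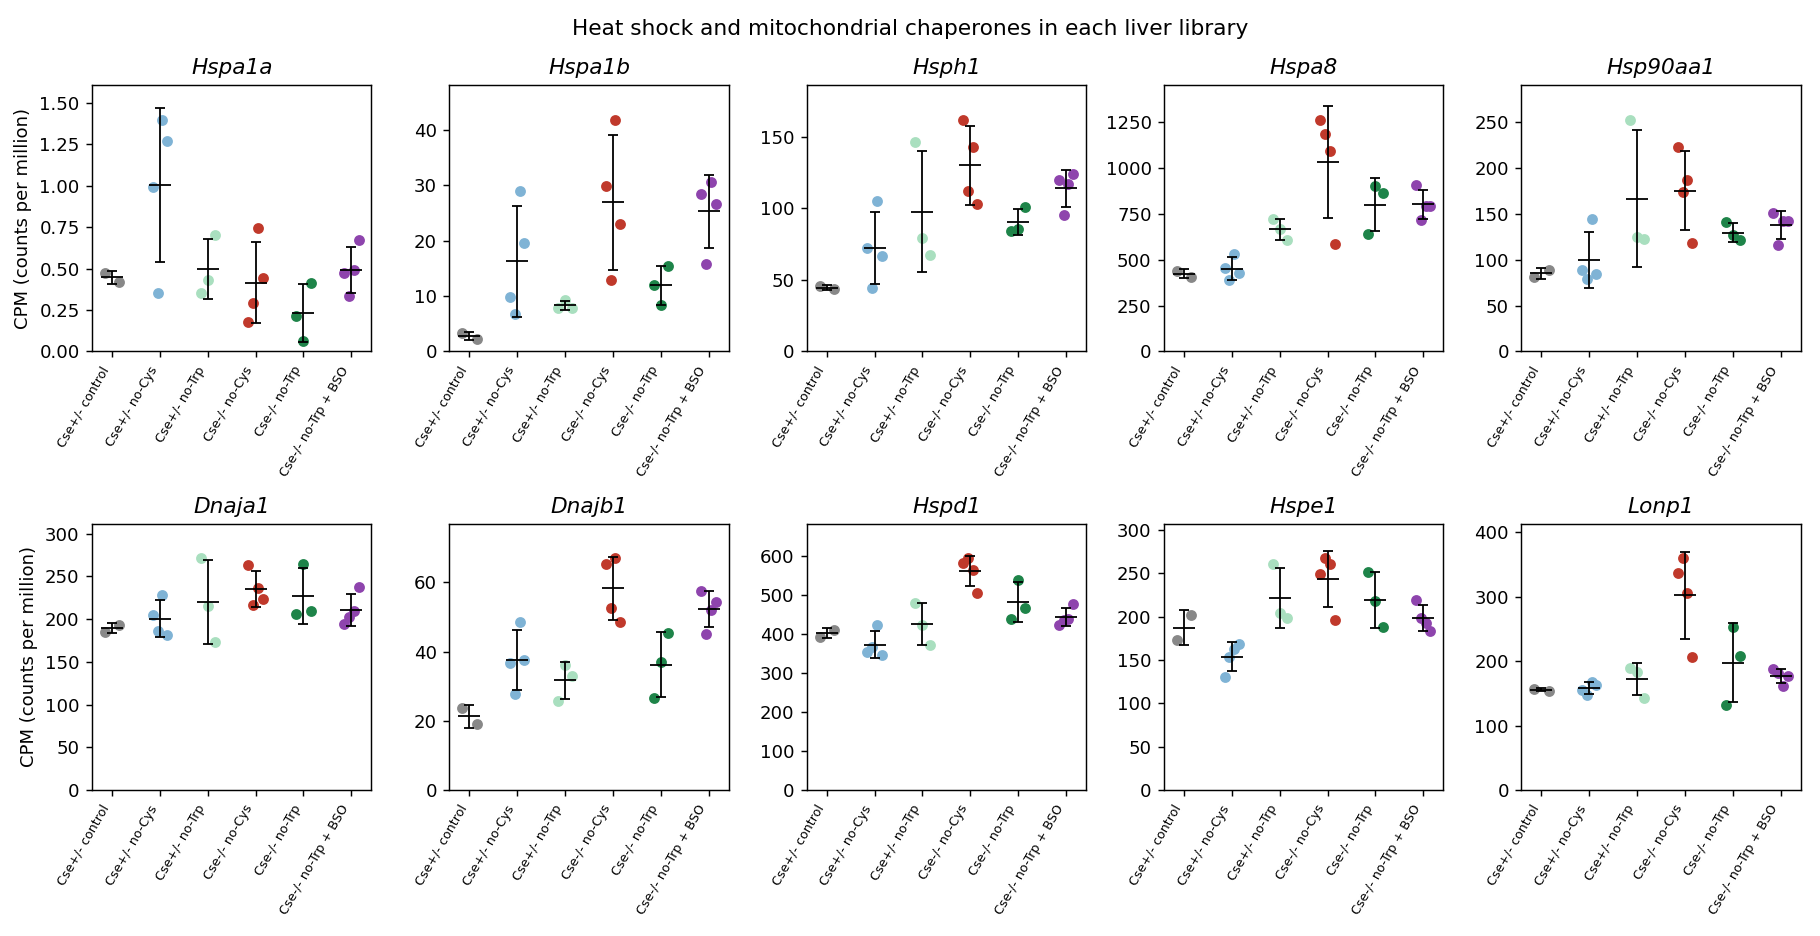
Level of each of the 10 genes in every library, in CPM (vertical axis, from 0), by genotype and diet (horizontal axis). Points are mice, and the bar and whiskers are the mean and SD. Cse-/- no-Cys livers had the highest mean of the 6 groups for 9 of the 10 genes, with Hspa1a the exception.

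The comparison of Cse-/- with Cse+/- livers, both on no-Cys, asks what follows when neither diet nor synthesis provides cysteine. Of the 10 genes, 7 rose and none fell (edgeR quasi-likelihood test with Benjamini-Hochberg adjustment over all genes tested, adjusted p under 0.05). Of all genes tested 23.8% passed, 11.6% higher and 12.2% lower. The 7 were Hspa8, Hsp90aa1, Hsph1, Dnajb1, Hspd1, Hspe1 and Lonp1. The median log2 fold change of the 10 was 0.70, beside -0.01 over all genes tested. In 4 of the 10 (Hspa8, Hspd1, Hspe1 and Lonp1) no library of one group reached into the range of the other, which was so for 23.2% of all genes tested.

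Hspa8, the constitutive cytosolic HSP70 (ENSMUSG00000015656, chr9:40800984-40810087, plus strand), was at 1263, 1182, 1090 and 585 CPM in the Cse-/- no-Cys livers av05, av06, av07 and av08. In the Cse+/- no-Cys livers it was at 456, 387, 533 and 426 CPM. All 4 knockout livers exceeded all 4 controls, although av08 was only just above the highest of them. The log2 fold change was 1.19 (SE 0.18, edgeR adjusted p = 0.000108). With 1 library left out it ran from 1.09 to 1.39, the highest without av08. No other member changed by as much among those that passed the test. Its value is uncertain as far as copies share its reads. Of its 61-base words 36.6% occur in 15 other genes, and Gm15459, which shares the most of them, had no count in any library.

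Hsp90aa1, the inducible cytosolic HSP90 (ENSMUSG00000021270, chr12:110690605-110702728, minus strand), was at 223, 174, 187 and 118 CPM in the Cse-/- no-Cys livers. Its Cse+/- no-Cys levels were 89.0, 79.2, 145 and 84.6 CPM. The groups overlapped through the control liver av03 at 145 CPM, which was above av08 at 118 CPM. The gene rose by a log2 fold change of 0.82 (SE 0.22, edgeR adjusted p = 0.0120). With 1 library left out the change ran from 0.70 to 1.06, the highest without av03. Other genes hold 45.3% of its 61-base words, Gm12346 most of them, at 1.60 to 6.25 CPM. Its constitutive partner Hsp90ab1 rose by a log2 fold change of 0.82 as well (SE 0.12, edgeR adjusted p = 0.000123). Per exon base, Hsp90aa1 stood at 7.71% of Hsp90ab1 in Cse-/- and 7.70% in Cse+/- no-Cys livers (means of 4), and the log2 ratio differed by 0.02 (2-sided exact permutation test, p = 0.886).

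Hsph1, an HSP110 protein that releases ADP from HSP70 (ENSMUSG00000029657, chr5:149614287-149636376, minus strand), was at 162, 112, 143 and 103 CPM in the Cse-/- no-Cys livers and at 72.4, 44.1, 105 and 66.7 CPM in the Cse+/- ones. The groups touched, since the control liver av03 (105 CPM) was just above av08 (103 CPM). The log2 fold change was 0.85 (SE 0.23, edgeR adjusted p = 0.0110).

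Of the J-domain genes Dnajb1 passed the test and Dnaja1 did not. Dnajb1, the stress-inducible HSP40 (ENSMUSG00000005483, chr8:83608193-83612653, plus strand), was at 65.2, 52.5, 66.9 and 48.5 CPM in Cse-/- and at 36.6, 27.7, 48.7 and 37.6 CPM in Cse+/- no-Cys livers. Its groups met at av03 (48.7 CPM) and av08 (48.5 CPM), and it rose by a log2 fold change of 0.63 (SE 0.17, edgeR adjusted p = 0.0112). Dnaja1, a farnesylated HSP40 (ENSMUSG00000028410, chr4:40722150-40737149, plus strand), was at 264, 217, 237 and 223 CPM against 205, 187, 229 and 182 CPM. Its ranges overlapped and its log2 fold change of 0.23 (SE 0.12) did not pass the edgeR test (adjusted p = 0.189). Dnaja1 shares 19.6% of its words with other genes and 608 exon bases with Smu1 on the other strand. Whether the 2 genes responded differently from each other was not tested.

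Neither inducible HSP70 gene passed the test. Hspa1b (ENSMUSG00000090877, chr17:34956436-34959238, minus strand) was at 29.9, 12.8, 41.8 and 22.9 CPM in Cse-/- and at 9.73, 6.70, 28.9 and 19.6 CPM in Cse+/- no-Cys livers. The spread within each group was wide and the ranges overlapped. The log2 fold change of 0.73 (SE 0.36) did not pass the edgeR test (adjusted p = 0.153), although it did without the control liver av03 (1.16, adjusted p = 0.0286). Hspa1a (ENSMUSG00000091971, chr17:34969190-34972156, minus strand) had only 3, 4, 12 and 6 counts in the Cse-/- no-Cys livers and 11, 5, 18 and 18 counts in the Cse+/- ones. In CPM the former were 0.177, 0.293, 0.745 and 0.443 and the latter 0.991, 0.353, 1.40 and 1.27, so the lowest control lay among the knockouts. The log2 fold change of -1.26 (SE 0.47) missed the edgeR threshold (adjusted p = 0.0602). It passed without av02 (-1.55, adjusted p = 0.0209) and without av07 (-1.71, adjusted p = 0.0299).

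Hspa1a and Hspa1b lie 9951 bases apart, and 64.3% of the 61-base words of Hspa1a occur elsewhere in the annotated genes, most of them in Hspa1b, so the counting of read pairs could split or drop reads of either gene. Hspa1a also shares 564 exon bases with Gm20481 on the opposite strand, which had no count in any library. With the counts of the pair summed to 1 gene, a choice made after seeing the data, the log2 fold change between the no-Cys groups was 0.67 (SE 0.36, edgeR adjusted p = 0.188). The share of Hspa1a in the counts of the pair did not overlap between the genotypes. It was 4.35% to 15.8% in the 9 Cse+/- libraries and 0.588% to 2.61% in the 11 Cse-/- libraries. Pooled over the libraries of a group, Hspa1a gave 52 of 904 counts in Cse+/- no-Cys livers (5.75%, Clopper-Pearson exact 95% interval 4.33% to 7.48%) and 25 of 1692 in Cse-/- no-Cys livers (1.48%, 0.958% to 2.17%), where the interval covers counting error only. Between the no-Cys groups the mean share differed by -4.62 percentage points (2-sided exact permutation test, p = 0.0286, the smallest that 4 against 4 can give, and 0.2 after Benjamini-Hochberg adjustment over 7 such tests of ratios and shares). The separation was noticed in the data and then tested on them. The summed counts of the pair also differed between groups, from 101 over the 2 control libraries, which had the highest shares, to 3188 over the 4 libraries with BSO, and the part of this in the share was not tested.

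**Figure D2:**
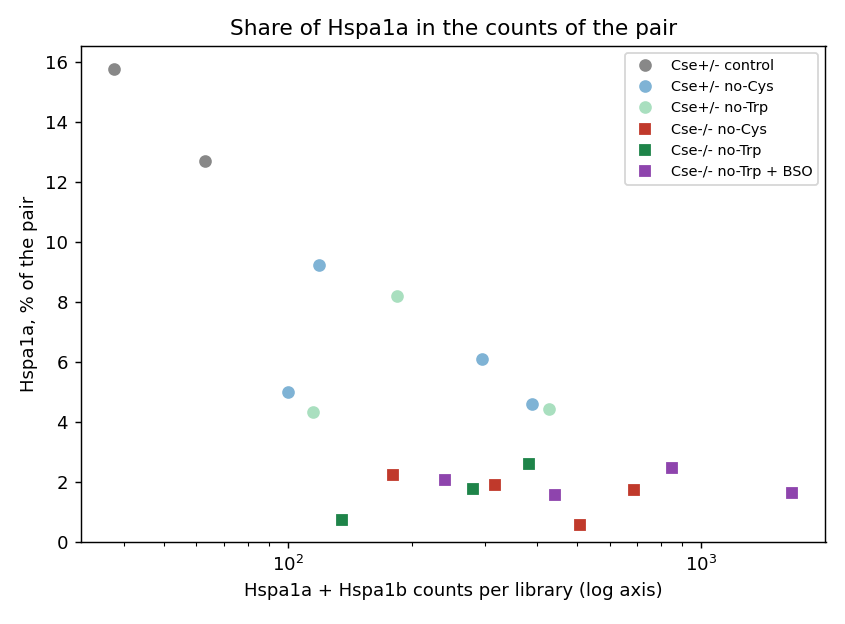
Share of Hspa1a in the summed counts of Hspa1a and Hspa1b (vertical axis, %) against that sum (horizontal axis, counts per library, log scale). Each point is a mouse, circles are Cse+/- and squares Cse-/-. All 9 Cse+/- libraries lie at or above 4.35% and all 11 Cse-/- libraries at or below 2.61%.

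The 3 mitochondrial members rose together in the Cse-/- no-Cys livers and did so without overlap. Hspd1, the HSP60 chaperonin (ENSMUSG00000025980, chr1:55077835-55088243, minus strand), was at 582, 595, 566 and 506 CPM against 355, 368, 423 and 347 CPM in Cse+/- no-Cys livers. Its log2 fold change was 0.59 (SE 0.10, edgeR adjusted p = 0.000258). Of its words 36.9% occur in other genes, mostly in Hspd1-ps3, which was at 36.4 to 45.2 CPM in the knockouts and 25.9 to 32.0 CPM in the controls. Hspe1, its co-chaperonin (ENSMUSG00000073676, chr1:55088132-55091307, plus strand), was at 249, 267, 261 and 197 CPM against 130, 154, 163 and 168 CPM. It rose by 0.66 on the log2 scale (SE 0.12, edgeR adjusted p = 0.000714), with 18.6% of its words in other genes. The knockout liver av08 was the lowest of its group in both genes, and still above every control. Per exon base, Hspe1 stood at 77.4% of Hspd1 in the knockouts and 74.1% in the controls, and the log2 ratio of the partners differed by 0.07 (2-sided exact permutation test, p = 0.514).

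Lonp1, the matrix protease (ENSMUSG00000041168, chr17:56614297-56626887, minus strand), was at 336, 359, 305 and 207 CPM in the Cse-/- no-Cys livers. The Cse+/- no-Cys livers held it at 155, 147, 168 and 163 CPM, a range close to that of the control diet (157 and 154 CPM). No knockout liver reached down to the controls. The log2 fold change was 0.93 (SE 0.17, edgeR adjusted p = 0.000583). With 1 library left out it ran from 0.83 to 1.07, the highest without av08. Lonp1 shares no 61-base word with any other gene.

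Lists of genes of the same pathways, chosen with earlier results of these data known, were read beside the 10. Each is set against the 11.6% of all genes that rose and the 12.2% that fell, as a description without a test. The list of cytosolic HSP70 and HSP110 genes also holds Hspa13, whose protein is microsomal. In it, 6 of 11 tested genes rose in Cse-/- against Cse+/- no-Cys livers and none fell, with a median log2 fold change of 0.73. Hspa8 and Hsph1 led them, and Hspa2 rose by 0.81 (SE 0.24, edgeR adjusted p = 0.0194). Of 17 HSP90 and co-chaperone genes 9 rose (median 0.32), with Ahsa1, the activator of the HSP90 ATPase, at 0.70 (SE 0.12, edgeR adjusted p = 0.00034). Of 9 nucleotide exchange and handover factors 5 rose (median 0.32), among them Stip1, which passes clients from HSP70 to HSP90, at 0.64 (SE 0.13, edgeR adjusted p = 0.0012) and Bag3, which links HSP70 to autophagy, at 0.57 (SE 0.14, edgeR adjusted p = 0.00509), beside Hspbp1 at 0.55. Of 14 cytosolic J-domain genes 4 rose (median 0.21), with Dnajc2 at 0.48 and Dnajb14 at 0.36 after Dnajb1. Of the TRiC chaperonin and prefoldin genes, 6 of 14 rose (median 0.19), with Cct3 at 0.76, Cct2 at 0.68 and Cct6a at 0.60.

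Small heat shock proteins went both ways, with Hspb8 higher (0.64, SE 0.14, edgeR adjusted p = 0.0021), Hspb6 and Hspb11 lower (-0.76 and -0.51) and a median of -0.51 over 5 genes tested of 10 listed. None of the 4 tested genes for heat shock factors and their binding protein passed, although up to 1 did under the alternatives. Hsf1 was at 0.11 (SE 0.10), and the list's median was -0.02. In mitochondria, 8 of 12 chaperone genes rose (median 0.55), with Hspa9, the matrix HSP70 that pulls proteins in during import, at 1.12 (SE 0.11, edgeR adjusted p = 2.07e-06) and its exchange factor Grpel2 at 0.71 (SE 0.15). Of 17 mitochondrial protease genes 7 rose (median 0.25), with the presequence protease Pitrm1 at 0.84 (SE 0.14) and Clpp, the second soluble matrix protease, at 0.63 (SE 0.10). Chaperones of the endoplasmic reticulum rose too, 9 of 16 (median 0.55), with Hyou1 at 0.96 (SE 0.24), Dnajb9 at 0.84 (SE 0.17) and Hspa5, the HSP70 of that compartment, at 0.80 (SE 0.20). No gene of the HSP70, HSP90, exchange factor, J-domain, TRiC, mitochondrial or endoplasmic reticulum lists fell in this comparison.

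**Figure D3:**
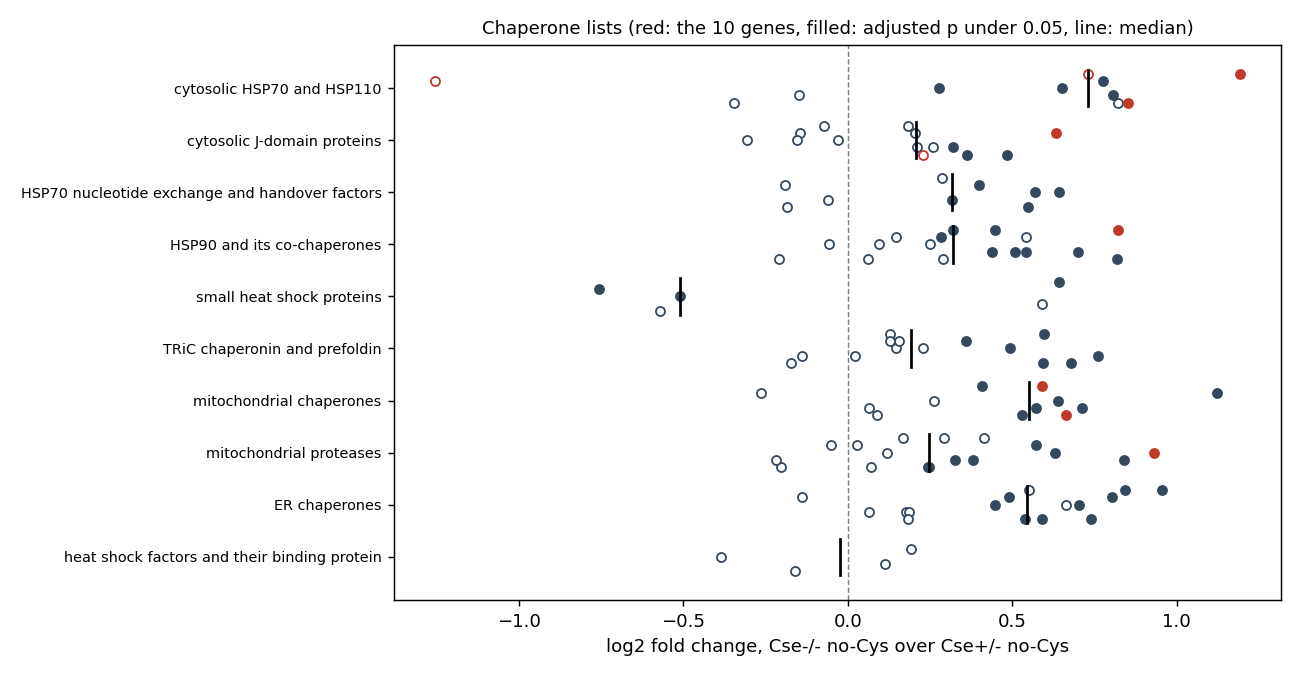
Log2 fold change of every tested gene of 10 chaperone lists, Cse-/- no-Cys over Cse+/- no-Cys (horizontal axis), by list (vertical axis). Each circle is a gene, filled where the edgeR adjusted p was under 0.05, red for the 10 genes described, and the black line is the list's median. Filled circles lie to the right of 0 in every list but the small heat shock proteins, where 2 lie to the left, and the heat shock factors, which have none.

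Other transcripts also differed between the no-Cys groups. Of 7 hepatocyte markers 4 fell and 1 rose, and their sum ran from 45076 to 77160 CPM in Cse-/- and from 90650 to 117760 CPM in Cse+/- no-Cys livers. All 5 red cell markers tested fell (sum of the 6 measured, from 69.1 to 114 CPM against 201 to 406 CPM). Atf5, which acts on mitochondrial stress genes, rose by 1.95 (SE 0.23, edgeR adjusted p = 1.17e-05) and was the 1 of 6 integrated stress response factors that rose, while Cebpb fell by 0.68. Of 14 circadian clock genes 7 fell (median -0.30), and of 11 immediate early genes 2 fell (Fos and Dusp1), the latter a share near that of all genes. Of markers of macrophages 1 of 8 was lower, of endothelium 1 of 6 higher, of stellate cells 1 of 6 lower, of cholangiocytes 2 of 5 lower and of lymphocytes 1 of 2 lower, counts too small to set against the shares of all genes. No marker of neutrophils, adipocytes or pancreas passed, nor did either cold-inducible RNA-binding protein gene. The part of these in the chaperone changes was not tested, and in bulk liver fewer cells of a type and less RNA per cell cannot be told apart.

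Set against another missing amino acid in the same genotype, Cse-/- no-Cys against Cse-/- no-Trp, 2 of the 10 genes rose and none fell, where 10.4% of all genes tested passed and 5.05% were higher. All 10 differences were positive, with a median log2 fold change of 0.48 beside -0.01 over all genes. The no-Cys libraries are the same as above. Dnajb1 was at 26.5, 37.0 and 45.4 CPM in the no-Trp livers av14, av15 and av16, all below the no-Cys range of 48.5 to 66.9 CPM. It was higher in no-Cys livers by a log2 fold change of 0.69 (SE 0.19, edgeR adjusted p = 0.0242). Lonp1 was at 131, 253 and 207 CPM in the no-Trp livers, so that av15 and av16 reached the level of the no-Cys liver av08. Its log2 fold change was 0.61 (SE 0.18, edgeR adjusted p = 0.0363).

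These calls rested on few libraries. Dnajb1 no longer passed without av05, av07 or av14 in turn (adjusted p = 0.0684, 0.0655 and 0.141), and Lonp1 no longer without av05, av06, av07, av14 or av16 (adjusted p from 0.0661 to 0.187). Hspa8, with no-Trp levels of 637, 903 and 861 CPM, differed by 0.36 (SE 0.19, edgeR adjusted p = 0.232), and by 0.56 without av08 (adjusted p = 0.0108), where 12.6% of all genes passed. Hspa1b was at 11.9, 8.35 and 15.5 CPM in no-Trp livers, and its log2 fold change of 1.17 (SE 0.40) had the largest size of the 10 but an edgeR adjusted p of 0.0643 (1.39 and 0.0375 without av06). In the lists, Bag3 had the largest called change of the cytosolic folding genes (0.95, SE 0.15, edgeR adjusted p = 0.000657), from 28.6, 32.0 and 36.7 CPM on no-Trp to 49.8 to 72.7 CPM on no-Cys. Hsp90ab1 (0.49) and Cdc37 (0.32) were higher as well. Of the HSP70 and HSP110 list only the microsomal Hspa13 (0.75) passed, also higher. The J-domain gene Dnajb6 (-0.41, SE 0.09, edgeR adjusted p = 0.0101) and the exchange factor gene Bag4 (-0.34, SE 0.11, edgeR adjusted p = 0.0458) were lower. Of 14 TRiC and prefoldin genes 4 were higher, led by Cct3 (0.55), Cct2 (0.44) and Cct7 (0.41). Hspa9 (0.60, SE 0.12), Clpx (0.51) and Dnaja3 (0.47) were the 3 of 12 mitochondrial chaperones that were higher, and 5 of 17 mitochondrial proteases were higher, Pitrm1 (0.57) among them. Of 16 chaperones of the endoplasmic reticulum 2 were higher, Dnajb9 (0.58) and Dnajc10 (0.47). Atf5 was higher by 1.60 (SE 0.26, edgeR adjusted p = 0.000757). In the same comparison 3 of 7 hepatocyte markers and 3 of 5 red cell markers were lower, as were the cholangiocyte marker Spp1 and 2 of 11 immediate early genes, and 4 of 14 clock genes were lower and 1 higher. Adipocyte markers summed to 13.1 CPM in 1 no-Trp liver and to 0.496 CPM or less in the no-Cys livers. The part of these was not tested.

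**Figure D4:**
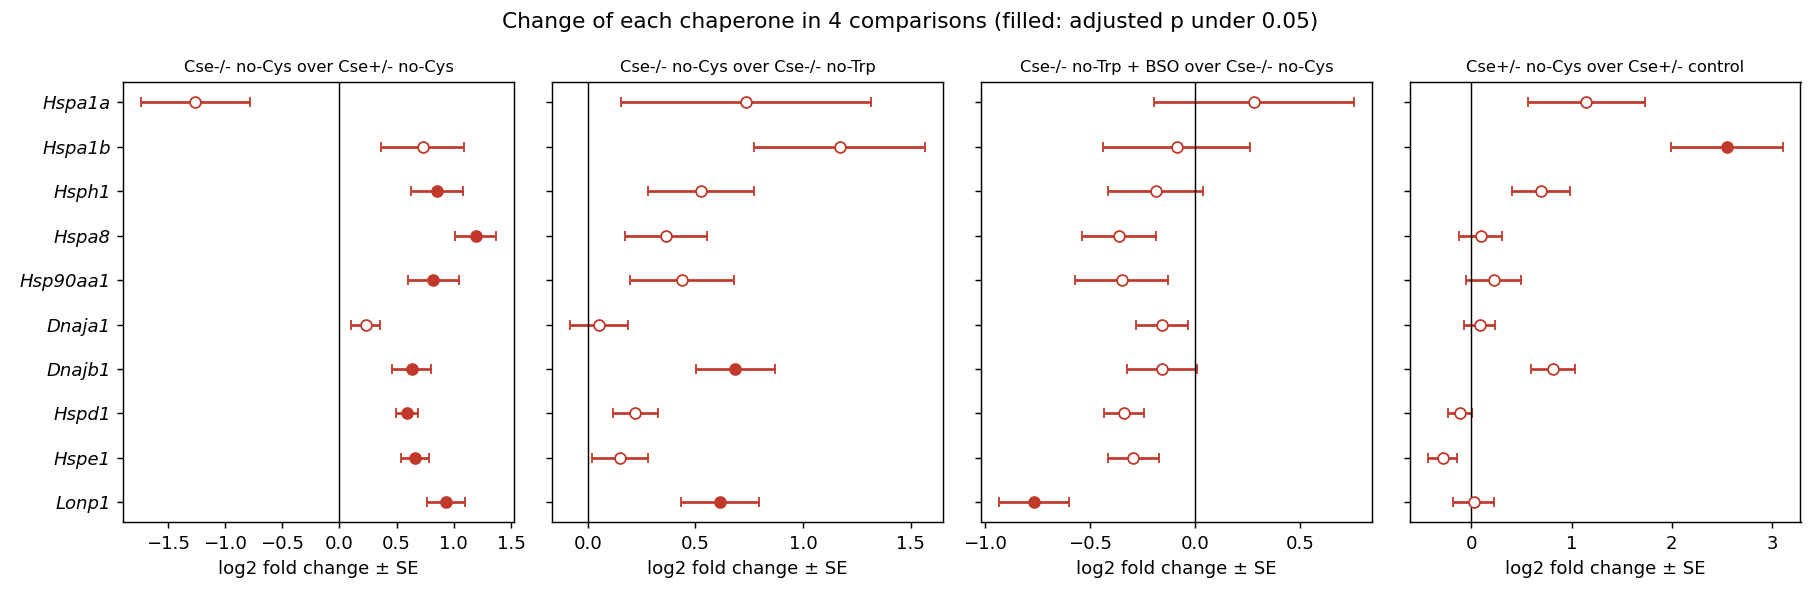
Log2 fold change with its SE (horizontal axis) of the 10 genes (vertical axis) in 4 comparisons, filled where the edgeR adjusted p was under 0.05. Between the no-Cys groups 7 genes are filled, all to the right of 0. Against no-Trp only Dnajb1 and Lonp1 are filled, with BSO only Lonp1, to the left, and in Cse+/- livers only Hspa1b.

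Adding BSO to the no-Trp diet asks what loss of glutathione adds to the lack of an amino acid in Cse-/- livers. Between no-Trp + BSO and no-Trp none of the 10 passed the edgeR test, 2 of them (Dnajb1 and Hspa1b) having an unadjusted p under 0.05, and none passed in DESeq2. Of all genes tested 0.793% passed in edgeR and 2.8% in DESeq2, and 13.0% had an unadjusted p under 0.05. Dnajb1 was at 57.4, 45.2, 52.0 and 54.2 CPM with BSO (av09 to av12) and differed from no-Trp by 0.53 (SE 0.18, edgeR adjusted p = 0.193). Hspa1b was at 28.4, 15.7, 30.6 and 26.6 CPM with BSO, above all 3 no-Trp livers, the highest of which (15.5 CPM) was close to the lowest with BSO. Its log2 fold change was 1.08 (SE 0.39, edgeR adjusted p = 0.207). Bag3 alone of the chaperone lists passed, at 0.65 (SE 0.15, edgeR adjusted p = 0.0436), and of the other lists the clock gene Nr1d1, at 1.04. The 3 mitochondrial members had log2 fold changes from -0.15 to -0.12, none past the test.

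Between no-Trp + BSO and no-Cys, both in Cse-/- livers, Lonp1 was the 1 member of 10 that differed, and it was lower with BSO (2.75% of all genes tested passed, 1.33% lower). It was at 188, 182, 162 and 176 CPM with BSO, all below the 4 no-Cys livers (207 to 359 CPM), and the log2 fold change was -0.77 (SE 0.17, edgeR adjusted p = 0.0219). The call was lost when any of av05, av06, av07, av09, av11 or av12 was left out (adjusted p from 0.0507 to 0.0838), with log2 fold changes from -0.80 to -0.68. Without av08 it was -0.91 (adjusted p = 0.00118), and Hspd1 (-0.39, adjusted p = 0.0236) and Hspa8 (-0.56, adjusted p = 0.0111) then passed too. The share of all genes that passed moved in the same way, to 6.97% without av08 and to between 0.352% and 1.09% without each of the 6 libraries that ended the call. Hspd1 was at 425, 438, 438 and 478 CPM with BSO, below all 4 no-Cys livers, and differed by -0.34 with all libraries (SE 0.10, edgeR adjusted p = 0.0613).

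None of the 7 cytosolic members passed. Their log2 fold changes ran from -0.36 (Hspa8) to 0.28 (Hspa1a), with adjusted p of 0.254 or more. For Hspa1b the difference was -0.09 (SE 0.35), for Dnajb1 -0.16 (SE 0.17) and for Hsph1 -0.19 (SE 0.23), which does not show that the diets act alike on them. In the mitochondrial lists, Hspa9 was lower with BSO (-0.70, SE 0.11, edgeR adjusted p = 0.00473), at 691 to 761 CPM against 861 to 1346 CPM, as were Grpel2, Dnaja3 and Pitrm1. Cct2, Cct6a and Cct7 of the TRiC chaperonin were lower as well. Atf5 was lower by 1.05 on the log2 scale, 3 of 7 hepatocyte markers were higher with BSO (Ttr, Apoa1 and Serpina1a, the last from a family of close copies), and so were the cholangiocyte markers Spp1 (1.09, SE 0.18) and Krt7 (1.07, SE 0.28) and the clock gene Cry1 (0.75, SE 0.18). Their part was not tested. The comparison shares its libraries with those above.

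On no-Trp (Cse-/- against Cse+/-, 2.64% of all genes tested passed) none of the 10 genes passed in edgeR or DESeq2 (4.92% of all genes passed in the latter), and none had an unadjusted edgeR p under 0.05. Log2 fold changes ran from -0.99 (Hspa1a, on 1 to 19 counts a library) to 0.52 (Hspa1b), with a median of 0.11. Hspa8 was at 637, 903 and 861 CPM against 720, 666 and 608 CPM in Cse+/- no-Trp livers and Lonp1 at 131, 253 and 207 CPM against 190, 183 and 143 CPM, with overlap in both. Of the chaperone lists the small heat shock gene Hspb1 alone passed, lower in Cse-/- livers (-1.30, SE 0.31, edgeR adjusted p = 0.0329), and of the clock genes Bhlhe41 and Dbp were higher. Hepatocyte markers summed to 70906 to 77016 CPM in Cse-/- and 82956 to 91542 CPM in Cse+/- no-Trp livers. The Cse+/- liver av17 was high in Hsp90aa1 (253 CPM against 124 and 123 CPM in av19 and av20) and in Hsph1 (146 CPM against 79.6 and 67.6 CPM).

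Whether the genotype difference itself changed with the diet was tested as an interaction, the no-Cys difference less the no-Trp difference. Hspe1 alone passed, at 0.68 (SE 0.19, edgeR adjusted p = 0.0442), where 4.36% of all genes tested did and 1.67% did with a positive value. Its genotype difference was 0.66 on no-Cys and -0.01 on no-Trp, where Cse-/- livers were at 252, 219 and 188 CPM and Cse+/- livers at 261, 205 and 199 CPM. The call was lost without av01, av02, av03, av05, av06, av07, av15, av16 or av17 in turn (adjusted p from 0.0510 to 0.112, log2 values from 0.55 to 0.71). Hsp90aa1 (1.18, SE 0.34, edgeR adjusted p = 0.0537) and Hspa8 (0.93, SE 0.27, edgeR adjusted p = 0.0546) lay just outside the threshold. Without av08, 4 members passed, Hspa8 (1.12), Hsp90aa1 (1.33), Hspe1 (0.77) and Lonp1 (0.88), and without av03, 3 passed, Hspa8 (1.02), Hsp90aa1 (1.42) and Hsph1 (1.21). Of all genes 7.80% passed without av08 and 3.54% without av03. Hsp90aa1 also passed without av19 or av20 (1.36 in each), and Lonp1 without av15 (0.96, adjusted p = 0.0354). Other libraries left out lowered these values, at the least to 0.80 (Hspa8), 0.75 (Hsp90aa1), 0.56 (Hsph1) and 0.52 (Lonp1). Over the alternatives the edgeR or DESeq2 adjusted p reached 0.122, 0.164, 0.356 and 0.204 for these genes. The Cse+/- no-Trp liver av17, high in Hsp90aa1 and Hsph1, enters these values through the no-Trp side. In all, 9 of the 10 interaction values were positive, with a median of 0.56 beside -0.02 over all genes. All interaction values that passed in the chaperone lists were positive. Each also holds the no-Trp difference, which was -1.30 for Hspb1 and -1.16 for Creld2. On no-Trp the list medians ran from -0.38 (small heat shock proteins) to 0.14 (mitochondrial proteases). In the cytosolic lists the values that passed were those of Hspb1 (1.88, SE 0.42), Hspb8 (1.03, SE 0.21), Stip1 (0.79), Ahsa1 (0.74), Hsp90ab1 (0.71), Cct3 (0.67), Cct2 (0.59) and Dnajc21 (0.50). The microsomal Hspa13 (0.96) was the only call of the HSP70 and HSP110 list. In the mitochondrial lists, 4 of 12 chaperones and 2 of 17 proteases passed, with Clpx (0.85, SE 0.19), which is in both, Hspa9 (0.82, SE 0.17) and Clpp (0.66). Of 16 chaperones of the endoplasmic reticulum 4 passed, led by Creld2 (1.83, SE 0.48), Hyou1 (1.51) and Manf (1.35). Atf5 passed at 1.57 and the endothelial marker Lyve1 at 1.30, while 6 of 14 clock genes, 2 of 7 hepatocyte markers and 1 of 5 red cell markers had negative interaction values that passed.

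In Cse+/- mice, which can make cysteine, the amino acid diets were set against the control diet, with only 2 control livers. On no-Cys 1 of the 10 genes rose and none fell (2.18% of all genes tested passed, 0.989% higher). This was Hspa1b, at 9.73, 6.70, 28.9 and 19.6 CPM (95, 108, 277 and 372 counts, lowest to highest) against 3.27 and 2.23 CPM (55 and 32 counts) on the control diet. All 4 no-Cys livers were above both controls, by a log2 fold change of 2.55 (SE 0.56, edgeR adjusted p = 0.0187), and 2.42 with Hspa1a counts added (adjusted p = 0.0215). The call was lost without either control liver (2.86 without av21 and 2.31 without av22, adjusted p = 0.0863 and 0.323), where the lone control is assumed to vary like the other groups. Dnajb1, at 23.7 and 19.0 CPM on the control diet and above both on no-Cys, had a log2 fold change of 0.82 (SE 0.22, edgeR adjusted p = 0.0553), which passed without av02 (0.94, adjusted p = 0.0375). Hspa8 (0.09, SE 0.22), Hspd1 (-0.11, SE 0.12), Hspe1 (-0.29, SE 0.15) and Lonp1 (0.02, SE 0.20) did not pass. Bag3 (0.68, SE 0.17, edgeR adjusted p = 0.0425) and Hsf2, a heat shock factor gene (0.71, SE 0.18, edgeR adjusted p = 0.0468), rose. Fkbp5, an HSP90 co-chaperone gene (-1.07, SE 0.26, edgeR adjusted p = 0.0374), and Dnajb6 (-0.52, SE 0.11, edgeR adjusted p = 0.0138) fell, and apart from these and Hspa1b no gene of the chaperone lists passed.

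Clock genes stood apart in this comparison, with Nr1d1 at 72.2 to 96.8 CPM against 15.6 and 16.6 CPM (log2 fold change 2.34, SE 0.25, edgeR adjusted p = 7.97e-05) and Arntl at 0.283 to 0.631 CPM against 2.97 and 3.13 CPM. In all, 4 of 14 clock genes rose and 2 fell, and the cholangiocyte marker Krt7 fell. The hours of collection are not given in the sources used here, and the part of the clock in the Hspa1b value was not tested. Nr1d1 was at 25.7 to 29.2 CPM in Cse+/- no-Trp, 42.5 to 48.9 CPM in Cse-/- no-Trp, 50.4 to 120 CPM in Cse-/- no-Cys and 84.9 to 108 CPM in Cse-/- no-Trp + BSO livers.

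On no-Trp, none of the 10 differed from the control diet in Cse+/- livers by edgeR (0.0474% of all genes tested passed), while 5 had an unadjusted p under 0.05, as did 9.29% of all genes, and DESeq2 called 1, Hsph1, beside 0.441% of all genes by that tool. In those 5 genes (Hspa1b, Hsph1, Hspa8, Hsp90aa1 and Dnajb1) all 3 no-Trp livers were above both control livers, which was so for 12.8% of all genes tested. Hsph1 was at 146, 79.6 and 67.6 CPM against 45.7 and 43.3 CPM (1.13, SE 0.31, edgeR adjusted p = 0.243). Hspa8 was at 720, 666 and 608 CPM against 440 and 406 CPM (0.65, SE 0.23, edgeR adjusted p = 0.364). The mitochondrial members differed by 0.08 to 0.24. Hepatocyte markers summed to 82956 to 91542 CPM on no-Trp and to 115231 and 115749 CPM on the control diet, without overlap, and adipocyte markers to 29.99 CPM in 1 no-Trp liver and at most 0.278 CPM in the controls. Their part was not tested.

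The genes were set in order of their mean levels over the 6 groups, and of the 10 only Hspa1b and Dnajb1 had the same order. Cse-/- no-Cys was highest for all but Hspa1a, but its range overlapped that of the next group in every gene. The neighbours in the order that did not overlap were Cse+/- no-Trp over the control diet for Hspa1b and Dnajb1, Cse+/- no-Trp over Cse+/- no-Cys for Hspa8, and the control diet over Cse+/- no-Cys for Hspe1. Hspa8 (423 to 1030 CPM) and Hspa1b (2.75 to 26.9 CPM) had a wide range of group means, and Dnaja1 (190 to 235 CPM) a narrow one. The mean order for the mitochondrial genes placed Cse-/- no-Trp second for Hspd1 and Lonp1, and Cse+/- no-Trp second for Hspe1.

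Over the 20 libraries, the genes whose log2 levels ran most closely with the mean of the 7 cytosolic members were Chordc1 (Pearson r = 0.913), an HSP90 co-chaperone, Stip1 (0.862), Vps37c (0.854), Zfp109 (0.848), Morf4l2 (0.843) and Gm15542 (0.838), of 12529 genes searched. Gm15542 shares sequence with Dnaja1 (9.47% of the latter's 61-base words). For the 3 mitochondrial members they were Ahsa1 (0.936), Hspa9 (0.928), 2010003K11Rik (0.920), Cct2 (0.916), Cct7 (0.910) and Serbp1 (0.908). The libraries share groups, depth and composition, so these values describe the order of the libraries and carry no test. Ahsa1 is an HSP90 activator and Cct2 and Cct7 are TRiC subunits, so cytosolic folding genes stood near the mitochondrial set in this order.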

How the data were processed

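Per the labels and the study's methods, the authors isolated RNA with Trizol, selected poly(A) RNA, sequenced paired ends, aligned to GRCm38 with HISAT2 2.1.0 and deposited raw read counts per gene made with HTSeq 0.11.0. No source read for this work states the strand setting of the counting. The 10 members and the gene lists were chosen with earlier results of these data known. Columns were matched to groups through the study's list of mice, and 1 of 21 columns, which no label covers, was not used. Symbols were found for 45143 of 46078 IDs (positions from GENCODE vM21).

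Genes were filtered with filterByExpr (minimum count 10, minimum total 15), scaled by TMM and fitted in edgeR 4.0.16 (R 4.3.3) over all 20 libraries in 1 quasi-likelihood model, with Benjamini-Hochberg adjustment over 14759 genes and a threshold of 0.05. SEs are the fold change over the root of F. CPM are TMM-scaled. The median log2 fold change of all genes lay between -0.03 and 0.02 under TMM, RLE and upper-quartile scaling. DESeq2 1.42.0, other scaling, filters, thresholds, only the groups compared, and leaving out each library were the alternatives. All 10 members are named, and of each chaperone list the called genes of largest change (at most 3 a comparison) with a mean of at least 1 CPM. Clock, immediate early and cell type marker lists are given mostly by counts, and Hsf1 was named after its value was seen. Single values were compared with exact permutation tests.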

Additional observations from a re-analysis of the deposited data

Results flagged for a closer look

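Hsp90aa1 in the Cse+/- no-Cys livers had a library far from the others. The liver av03 was at 144.9 CPM, while the other 3 ran from 79.2 to 89.0 CPM and the gap took up 0.850 of the group's range, above the 95% critical value of Dixon's test for 4 samples. Of 30 gene and group combinations with 4 libraries, this was the only one so far apart, and chance alone gives about 1 in 20. Hspe1 had a genotype difference that changed with the diet, with an interaction log2 value of 0.68 (edgeR adjusted p = 0.0442). Of 21 alternatives, 12 lost this call and 9 kept it, with log2 values of 0.55 to 0.80 and adjusted p from 0.0101 to 0.112. The call was lost with 9 of the 14 libraries left out in turn, at a threshold of 0.01, with upper-quartile factors and with only the groups compared.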

How the results depend on the processing

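No paired analysis was possible because the columns of the count table carry no replicate number. Of 614 alternative values of single members in 41 gene and comparison pairs, none turned its direction, 543 kept their side of the threshold, 38 lost it and 33 gained it. These were not all of the pairs, and near-zero ones are not among them. Examples are Hspa8 for no-Trp + BSO against no-Trp (0.0009) and Hspe1 between genotypes on no-Trp (-0.01). Whether such values turn direction was not followed. Between the no-Cys groups the count of members called was 4 at an adjusted p under 0.01 (12.6% of all genes), 7 with every other scaling, filter, tool or set of groups tried (11.1% to 27.4%), and 7 to 8 with 1 library left out (18.1% to 23.7%). The percentage after each count is the share of all genes tested that passed under the same setting. For Cse-/- no-Cys against no-Trp (2 called) it was 0 at 0.01 (3.16%) and with only the groups compared (3.81%), 3 without a filter on low counts (5.25%), and 0 to 3 with 1 library left out (4.65% to 12.6%). For no-Trp + BSO against no-Trp (0 called) it was 1 (Hspa1b) without a filter on low counts (1.05%). For no-Trp + BSO against no-Cys (1 called) it was 0 at 0.01 (0.271%), 2 with DESeq2 (6.44%) and 0 to 3 with 1 library left out (0.352% to 6.97%). For Cse+/- no-Cys against control (1 called) it was 0 at 0.01 (0.42%) and with only the groups compared (1.0%), 2 without a filter (1.77%), with a mean of at least 1 CPM (2.91%) and with DESeq2 (4.68%), and 0 to 2 with 1 library left out (0.0655% to 2.84%). For Cse+/- no-Trp against control (0 called) it was 2 without a filter (0.259%) and 1 with DESeq2 (0.441%). For the interaction (1 called) it was 0 at 0.01 (1.08%), with upper-quartile factors (4.34%) and with only the groups compared (2.63%), 5 without a filter (2.95%), 2 with a mean of at least 1 CPM (5.37%), 3 with DESeq2 (8.06%) and 0 to 4 with 1 library left out (2.37% to 7.80%). Genes called in the lists between the no-Cys groups changed as well. Over the alternatives they were 2 to 6 for HSP70 and HSP110 (main fit 6) and 5 to 11 for HSP90 (9). J-domain genes gave 2 to 6 (4), exchange factors 5 to 6 (5) and TRiC and prefoldin 6 to 7 (6). Mitochondrial chaperones stayed at 8, mitochondrial proteases gave 5 to 8 (7) and endoplasmic reticulum chaperones 5 to 10 (9). Small heat shock proteins gave 2 to 3. The cause of these changes was not tested. The control diet had 2 livers, and Hspa1a had 1 to 27 counts a library.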
